A study of Sus scrofa with 40 samples.

Results

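Heat shock proteins are chaperones that bind unfolded proteins, and their RNA was followed here in pig kidney through warm ischemia and cold storage. The members were HSPH1, HSPA8, HSP70, HSP90AA1, HSP90AB1, HSPB1, HSPD1, HSPE1, DNAJB1 and the transcription factor HSF1. A probe belonged to the set when the gene name in the scanner files equalled a member. For HSP70 it also belonged when its description held "heat shock" together with "70", which added 11 probes of HSP70.2, HSPA1L, HSPA4L, HSPA5, HSPA12A and HSPA13. The rule gave 57 probes of 15 gene names, out of 43603 probes for 35955 identifiers. No probe analysed carried the name HSF1, so HSF1 itself was not analysed here.

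When proteins unfold, HSF1 is released from chaperones, forms trimers and switches on the genes of HSP70, HSPH1, DNAJB1, HSP90AA1 and HSPB1. HSP70 proteins hold unfolded chains in an ATP-driven cycle in which J-domain proteins such as DNAJB1 load the client and HSPH1 exchanges the nucleotide. HSPD1 and HSPE1 fold proteins inside mitochondria, which are abundant in the proximal tubule and exposed to injury when a kidney loses its blood supply.

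All kidneys came from 3 month old Large White pigs, with 5 kidneys in each of the Ctl and WI groups and 5 further kidneys for cold storage. Ctl kidneys were frozen straight after removal. WI kidneys were clamped, taken out and left clamped for 60 min at 37 °C. Cold storage kidneys went through the same 60 min at 37 °C, were flushed with University of Wisconsin solution (UW) at 4 °C and were kept at 4 °C. They were biopsied at 6 h (WI+CS6h) and again at 24 h (WI+CS24h), so both times share kidneys. None of the 4 groups was reperfused before sampling, and every kidney came from a brother pig under the same anaesthesia. Cortex (C) and corticomedullary junction (CMJ) were taken, which gives 8 groups of 5 one-colour arrays.

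The share of spots well above background ran from 57.01% to 69.91% over the 40 arrays, with a median of 65.59%, and the pairwise correlation of the arrays from 0.9588 to 0.9959. With 5 arrays in each group, precision is set by that number. Levels are given as log2 signal, the scanner's processed signal on a log2 scale after quantile normalization, and differences as log2 fold changes ± SE. A probe is called at an adjusted p under 0.05 with a log2 fold change of at least 0.5 in size (limma, Benjamini-Hochberg over all probes). Signals of different probes are not compared with each other. The RNA is that of whole biopsies, so fewer cells of a type and less RNA per cell cannot be told apart. Proximal tubule markers were above background on every array (4 of the 7 genes listed were on the array).

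HSP70 genes resemble each other in sequence, and the letters of a probe show what it can report. The HSP70.2 probes are printed because the inducible gene, whose RefSeq synonyms are HSPA1A and HSPA1B, was followed by these 60-base probes alone. Both read through a protein sequence without a stop codon in 2 forward frames.
HSP70.2 A_72_P088236: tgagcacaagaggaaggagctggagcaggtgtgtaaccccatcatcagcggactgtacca
HSP70.2 A_72_P015686: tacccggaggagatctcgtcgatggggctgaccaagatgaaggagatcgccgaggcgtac
Both probes carry 1 identifier, and their GC contents are 55% and 60%. In the RefSeq annotation (Sscrofa11.1) HSP70.2 lies inside the span of HSPA1L. The signal of the pair may not be fully separated, which was not tested. The probe named HSP70 in the files carries an identifier that RefSeq names HSPA6.

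In cortex after cold storage, probes of HSPH1, HSPA12A, DNAJB1, HSP90AA1 and HSPD1 rose at both times, and no member probe was called lower. Log2 fold changes above 0 were seen for 54 of the 57 probes at 6 h and 53 at 24 h, beside 58.8% and 54.9% of all probes. At 6 h against Ctl-C, 9 of the 57 probes were called, from 6 of the 15 genes (HSPH1, HSPA8, HSPA12A, DNAJB1, HSP90AA1 and HSPD1), while 4.45% of all probes tested were called. By the adjusted p alone, 12 probes of 8 genes passed, against 5.63% of all probes. At 24 h, 5 probes of 5 genes were called, against 2.9% of all probes, and 9 probes passed by the adjusted p alone, against 3.64%. These counts take a gene when any of its probes was called. By the probe with the highest mean signal of each gene, 2 genes were called at 6 h and 0 at 24 h. Most member probes were above background on every array, while many of all probes were dim. With a filter on dim probes, 8.17% of the probes kept were called at 6 h and 5.53% at 24 h. In the main fit 15.8% and 8.77% of the 57 member probes were called. The median log2 fold change of the 57 probes was 0.38 at 6 h and 0.33 at 24 h, beside 0.057 and 0.014 over all probes tested. The share of spots above background was lower in WI+CS6h-C (57.01% to 68.47%, median 61.99%) than in Ctl-C (62.9% to 68.16%, median 67.14%). With that share as a covariate 2 member genes were called at 6 h in place of 6, beside 2.14% of all probes in place of 4.45%. On the deposited matrix, the authors' own log2 values, the gene count at 24 h was 1. Both times share the Ctl-C arrays and the stored kidneys.

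In CMJ, 5 probes of 5 genes were called at 6 h against Ctl-CMJ (HSPH1, HSPA12A, DNAJB1, HSP90AA1 and HSPD1), beside 3.33% of all probes. At 24 h, 6 probes of 5 genes were called, beside 3.7%: HSPH1, HSP70.2, HSPA12A, HSP90AA1 and HSPD1. All of these were higher than in Ctl-CMJ. By the probe with the highest mean signal of each gene, 1 gene was called at 6 h and 2 at 24 h. By the adjusted p alone, 13 probes of 8 genes passed at each time, against 4.67% of all probes at 6 h and 5.19% at 24 h. On the deposited matrix 1 member gene was called at 6 h and 2 at 24 h. The median log2 fold change of the members was 0.35 at 6 h and 0.34 at 24 h, beside -0.002 and 0.008 over all probes. Tubule markers moved in the same comparisons. The proximal tubule list (4 genes) had medians of 0.40 and 0.21, with SLC22A8, an organic anion transporter, called higher at 6 h (0.79 ± 0.21, adjusted p = 0.0351). The loop of Henle and collecting duct list (4 genes) had medians of -0.37 and -0.24, with SCNN1G, a sodium channel subunit, called higher (0.66 ± 0.18, adjusted p = 0.046, and 0.85 ± 0.18, adjusted p = 0.0098). DES, a smooth muscle filament, was called higher at 6 h (0.83 ± 0.23, adjusted p = 0.0475). Their part in the member values was not tested.

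**Figure D1:**
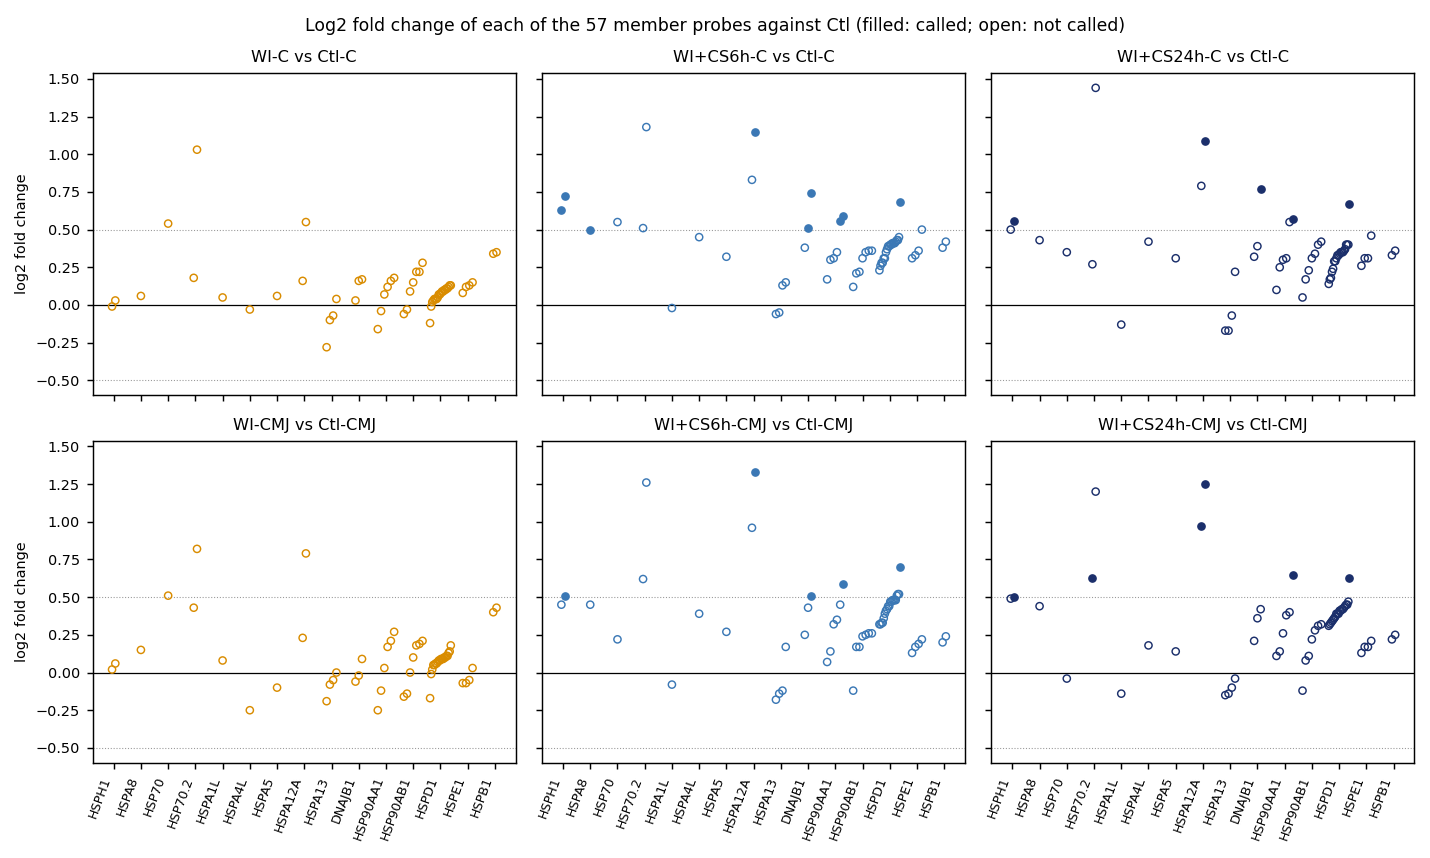
Log2 fold change against Ctl (vertical axis) of each member probe, grouped by gene along the horizontal axis, in cortex (upper row) and corticomedullary junction (lower row) after WI, WI+CS6h and WI+CS24h. Each point is 1 of the 57 probes, filled where it was called, and dotted lines mark log2 fold changes of 0.5 and -0.5; after WI all points are open, and after cold storage the filled points lie above 0.5.

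HSPH1, the nucleotide exchange factor of the HSP110 branch, rose in both tissues. Its brighter probe, A_72_P035611, read 9.35, 8.99, 9.19, 9.08 and 9.34 (log2 signal) in the Ctl-C arrays. It read 9.25, 9.2, 9.16, 9.32 and 9.17 in WI-C. In WI+CS6h-C it read 9.81, 9.54, 10, 10 and 9.75. Every array of the cold storage group lay above every Ctl-C and WI-C array, which overlapped each other. The log2 fold change at 6 h was 0.63 ± 0.11 against Ctl-C (adjusted p = 0.00236) and 0.60 ± 0.11 against WI-C (adjusted p = 0.00494).

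At 24 h the WI+CS24h-C arrays of the same HSPH1 probe read 9.59, 9.44, 9.85, 9.9 and 9.64, again all above Ctl-C. The log2 fold change of 0.50 ± 0.11 had an adjusted p of 0.0141 but lay just under the fold limit before rounding, so this probe was not called there. The dimmer HSPH1 probe, A_72_P591989, was called at both times in cortex, with log2 fold changes of 0.72 ± 0.09 (adjusted p = 0.000134) and 0.56 ± 0.09 (adjusted p = 0.00134). In CMJ the brighter probe read 9.07, 9.12, 9.12, 9.17 and 9.28 in Ctl-CMJ and 9.51, 9.59, 9.77, 9.85 and 9.6 in WI+CS6h-CMJ. Those groups did not overlap, and the log2 fold change was 0.51 ± 0.11 (adjusted p = 0.012). At 24 h in CMJ the dimmer probe was called, at 0.50 ± 0.08 (adjusted p = 0.000932), and the brighter one stood at 0.49 ± 0.11 (adjusted p = 0.0152). The probes of HSPH1 had a Pearson correlation of 0.909 over the 40 arrays and 0.612 after each group's mean was removed.

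HSPA8, the HSP70 protein that cells make at all times, had the smallest spread of the member probes, with an SD of 0.08 within groups. Its single probe read 13.83, 13.63, 13.72, 13.7 and 13.82 in Ctl-C. It read 14.18, 14.13, 14.32, 14.28 and 14.32 in WI+CS6h-C and 14.14, 14.09, 14.06, 14.34 and 14.21 in WI+CS24h-C. Neither cold storage group overlapped with Ctl-C. The log2 fold change was 0.50 ± 0.07 at 6 h (adjusted p = 0.000398), which was called, and 0.43 ± 0.07 at 24 h (adjusted p = 0.00176), under the fold limit. The call at 6 h held in 4 of the 10 fits that left out 1 array, since the fold change lay at the limit. In CMJ the levels went from 13.63 to 13.8 in Ctl-CMJ to 14.16 to 14.2 at 6 h and 14.06 to 14.32 at 24 h. The log2 fold changes there were 0.45 ± 0.06 (adjusted p = 0.00024) and 0.44 ± 0.06 (adjusted p = 0.000317), without overlap and under the fold limit.

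HSP70.2 is the stress-inducible HSP70. Probe A_72_P088236 read 9.58, 9.47, 9.72, 9.71 and 9.86 in Ctl-C. It read 10.41, 10.28, 10.36, 10.28 and 9.56 in WI+CS6h-C and 10, 10.1, 10.04, 10.14 and 9.38 in WI+CS24h-C. Numbers 1 to 4 of both cold storage groups were above all Ctl-C arrays, while number 5 lay among or below them. The log2 fold changes were 0.51 ± 0.17 (adjusted p = 0.0795) and 0.27 ± 0.17 (adjusted p = 0.435), and neither was called.

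In CMJ the same HSP70.2 probe read 9.2, 9.39, 9.22, 9.32 and 9.49 in Ctl-CMJ. It read 10.11, 10.19, 9.93, 10.2 and 9.27 at 6 h and 10.12, 10.08, 9.87, 10.26 and 9.41 at 24 h. Number 5 was again the low array, inside the Ctl-CMJ range. The 24 h difference was called, at 0.63 ± 0.18 (adjusted p = 0.0467), and the 6 h difference was 0.62 ± 0.18 (adjusted p = 0.0534). The call at 24 h held in 1 of the 10 fits that left out 1 array. With the replicate number as a block its adjusted p was 0.0641, though a shared number pairs no kidneys between Ctl and cold storage. After WI alone this probe read 9.53 to 10.1 in WI-CMJ, above all Ctl-CMJ arrays, with an uncalled log2 fold change of 0.43 ± 0.18 (adjusted p = 0.283).

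The dim HSP70.2 probe, A_72_P015686, was measured on 32 of the 40 arrays, because the scanner software marked its spot as an outlier on the rest, and on 2 of the 5 WI+CS6h-C arrays. It ranged from 3.54 to 5.43 in Ctl-C, from 4.67 to 6.02 in WI-C and from 5.36 to 6.35 in WI+CS24h-C. The log2 fold changes against Ctl-C were 1.03 ± 0.45 after WI and 1.44 ± 0.45 at 24 h, with adjusted p of 0.887 and 0.106. None of its differences was called in either tissue. The HSP70.2 probes had a correlation of 0.436 over the shared arrays.

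HSPA12A, a distant HSP70 relative named through its description, had the largest log2 fold changes among the called probes. Its dimmer probe, A_72_P490425, read 4.56, 4.67, 4.81, 4.71 and 4.86 in Ctl-C. It read 5.04, 5.62, 5.4, 5.16 and 5.13 in WI-C and 6.56, 5.93, 5.57, 4.92 and 6.36 in WI+CS6h-C. Both groups were above Ctl-C on every array, and the cold storage arrays spread over a wider range. Only the cold storage difference was called, with a log2 fold change of 1.15 ± 0.27 at 6 h (adjusted p = 0.0186) and 1.09 ± 0.27 at 24 h (adjusted p = 0.0303). The difference after WI was 0.55 ± 0.27 (adjusted p = 0.964). In CMJ it was called at 6 h (1.33 ± 0.34, adjusted p = 0.0328) and at 24 h (1.25 ± 0.34, adjusted p = 0.0424). The brighter probe, A_72_P372993, was called at 24 h in CMJ only, at 0.97 ± 0.27 (adjusted p = 0.0445), beside 0.96 ± 0.27 (adjusted p = 0.0506) at 6 h. In the 10 fits that left out 1 array, the calls of A_72_P490425 held in 7 and 4 in cortex and in 3 and 3 in CMJ, and that of A_72_P372993 in 3. With normexp background correction the log2 fold changes of A_72_P490425 were 0.24 to 0.29, and none was called. The probes of HSPA12A followed each other with a correlation of 0.933 over the arrays.

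The remaining HSP70 relatives moved less. HSPA5, the HSP70 protein of the endoplasmic reticulum, read 9.57 to 9.79 in Ctl-C and 9.72 to 10.23 in WI+CS6h-C, with a log2 fold change of 0.32 ± 0.09 (adjusted p = 0.0446) that was under the fold limit. In CMJ it was 0.27 ± 0.07 at 6 h (adjusted p = 0.0435) and 0.14 ± 0.07 at 24 h (adjusted p = 0.321). HSPA4L, an HSP110 relative, showed 0.45 ± 0.15 (adjusted p = 0.0867) in cortex at 6 h and 0.39 ± 0.12 (adjusted p = 0.0733) in CMJ, with neither called. The 4 probes of HSPA13, which encodes a microsomal HSP70 relative, stayed between -0.18 and 0.22 against Ctl in cold storage in both tissues, and HSPA1L, expressed mainly in testis, between -0.14 and -0.02. The probe named HSP70 was dim, from 2.91 to 4.06 in Ctl-C and from 2.43 to 5.6 in WI+CS6h-C, and its log2 fold changes against Ctl lay between -0.04 and 0.55 with none called.

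DNAJB1, the J-domain partner that delivers clients to HSP70, was called in cortex at both times by the dimmest of its 3 probes. Probe A_72_P204112 read 8.77, 8.96, 8.77, 8.91 and 8.76 in Ctl-C. In WI-C it read 9.18, 9.24, 8.91, 8.61 and 9.09. It read 9.69, 9.25, 10, 9.51 and 9.44 in WI+CS6h-C. The cold storage arrays lay above both other groups, which overlapped. The log2 fold change against Ctl-C was 0.74 ± 0.15 at 6 h (adjusted p = 0.00832) and 0.77 ± 0.15 at 24 h (adjusted p = 0.00792).

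In CMJ, DNAJB1 by the same probe was called at 6 h, at 0.51 ± 0.12 (adjusted p = 0.0153), and was 0.42 ± 0.12 at 24 h (adjusted p = 0.0447), under the fold limit. Probe A_72_P260797 was called in cortex at 6 h alone (0.51 ± 0.13, adjusted p = 0.024). The brightest probe, A_72_P203192, read 10.87 to 10.96 in Ctl-C and 11 to 11.85 in WI+CS6h-C, without overlap, and its log2 fold change of 0.38 ± 0.17 was not called (adjusted p = 0.205). Its arrays numbered 3 and 4 stood at 11.85 and 11.45, and the other WI+CS6h-C arrays between 11 and 11.13. Over the 40 arrays the correlation with this brightest probe was 0.776 for A_72_P204112 and 0.604 for A_72_P260797.

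**Figure D2:**
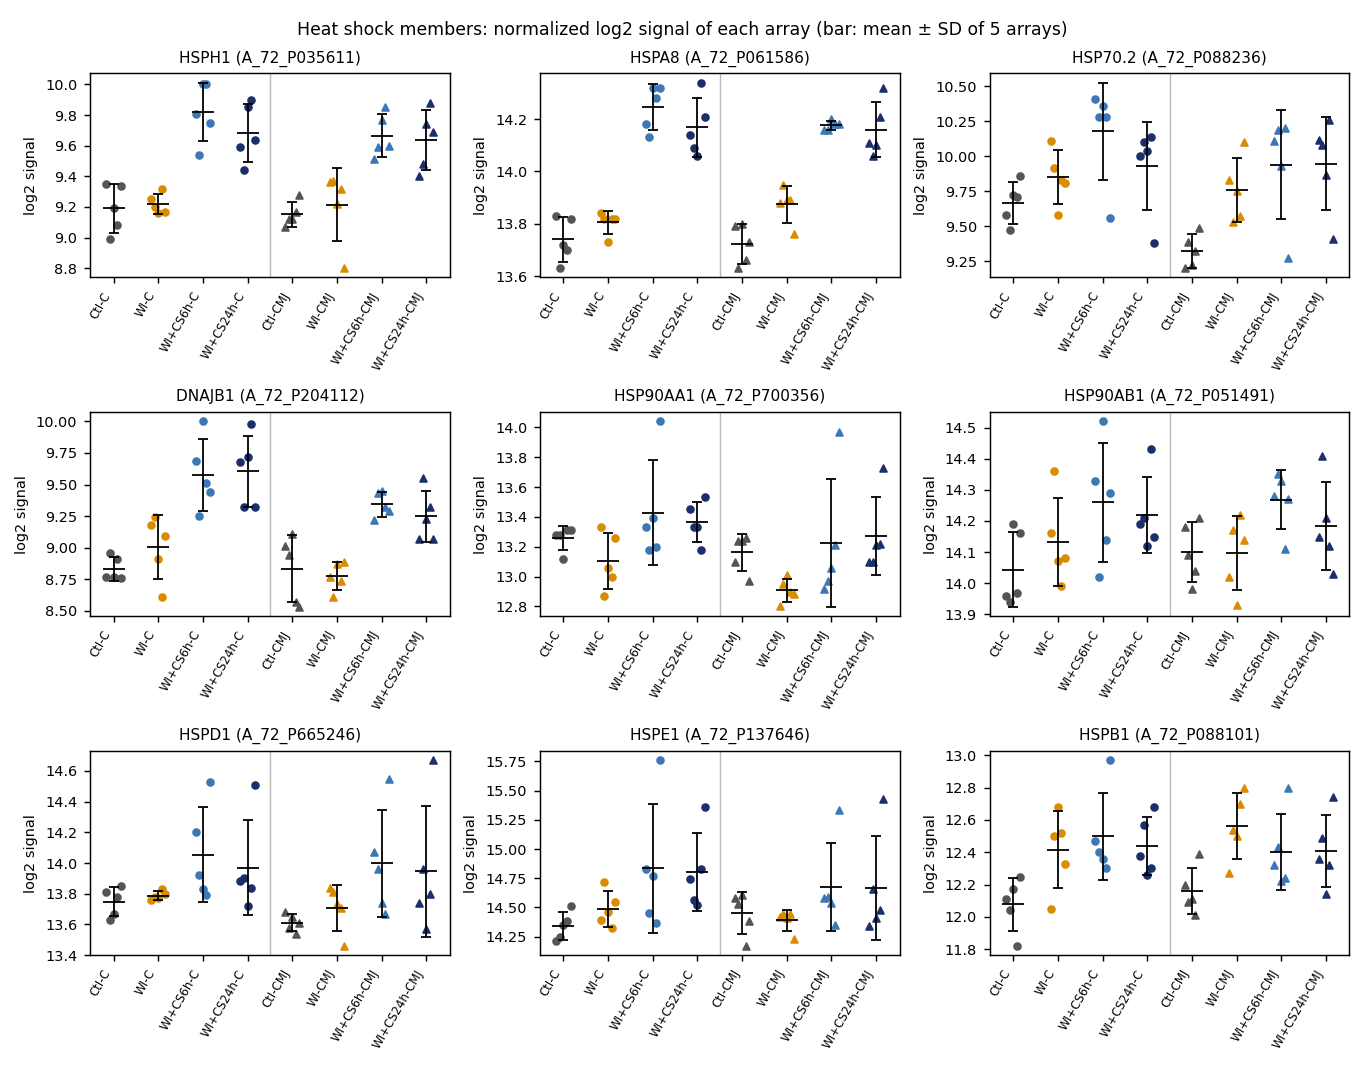
Normalized log2 signal (vertical axis, a separate scale for each panel) of 9 member probes on every array of the 8 groups, with circles for cortex, triangles for corticomedullary junction and bars for the mean ± SD of 5 arrays. The HSPH1 and HSPA8 points of the WI+CS6h groups lie above all Ctl points of the same tissue, and 1 array of each cold storage group stands above the rest for HSPE1 and HSPD1 and below the rest for HSP70.2.

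HSP90AA1, the inducible HSP90 that matures kinases and steroid receptors, was called by 2 of its 6 probes. Probe A_72_P669304 read 10.55, 10.72, 10.58, 10.65 and 10.57 in Ctl-C. It read 11.24, 10.97, 11.29, 10.96 and 11.42 in WI+CS6h-C and 11.37, 11.14, 11.01, 11.01 and 11.37 in WI+CS24h-C. No cold storage array overlapped with Ctl-C. The log2 fold changes were 0.56 ± 0.10 (adjusted p = 0.00304) and 0.57 ± 0.10 (adjusted p = 0.00352).

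In CMJ the same HSP90AA1 probe was at 0.45 ± 0.09 (adjusted p = 0.00657) and 0.40 ± 0.09 (adjusted p = 0.0125), under the fold limit. Probe A_72_P232852 was called in cortex at 6 h (0.59 ± 0.16, adjusted p = 0.0366) and in CMJ at both times (0.59 ± 0.15, adjusted p = 0.0283, and 0.65 ± 0.15, adjusted p = 0.0146). With 1 array left out, these calls held in 4, 5 and 10 of 10 fits. Its WI+CS6h-C arrays read 12.54, 12.56, 12.65, 12.62 and 13.42, all above the Ctl-C range of 12.03 to 12.25, with number 5 far above the rest. The brightest probe, A_72_P700356, read 13.12 to 13.31 in Ctl-C and 13.18 to 14.04 in WI+CS6h-C and was not called in any comparison (0.17 ± 0.14 at 6 h and 0.10 ± 0.14 at 24 h in cortex). The other 3 probes lay between 0.14 and 0.38 against Ctl in cold storage, and none was called.

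HSP90AB1, the HSP90 that is present in unstressed cells, showed smaller shifts and no call. One of its 7 probes, A_72_P271974, was above background on 0 arrays and was left out of what follows. The other 6 lay between 0.21 and 0.36 in cortex at 6 h, between 0.17 and 0.42 in cortex at 24 h, and between 0.08 and 0.32 in CMJ. Probe A_72_P763852 had log2 fold changes of 0.36 ± 0.09 (adjusted p = 0.0281) and 0.42 ± 0.09 (adjusted p = 0.0171) in cortex. Of these 6 probes, 2 passed the adjusted p at each time in cortex and 3 at each time in CMJ, all under the fold limit.

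HSPD1, the mitochondrial chaperonin, was read by 20 probes, and 1 of them, A_72_P110291, was called in all 8 comparisons of a cold storage group with Ctl or WI. It read 11.09, 11.04, 10.81, 10.83 and 10.78 in Ctl-C and 11.05, 10.76, 10.77, 10.73 and 10.67 in WI-C. It read 11.83, 11.46, 11.43, 11.19 and 12.05 in WI+CS6h-C. Ctl-C and WI-C overlapped, and the cold storage arrays lay above both. The log2 fold changes against Ctl were 0.68 ± 0.15 (adjusted p = 0.0129) and 0.67 ± 0.15 (adjusted p = 0.0172) in cortex. In CMJ they were 0.70 ± 0.16 (adjusted p = 0.0173) and 0.63 ± 0.16 (adjusted p = 0.0298), and the last of these calls held in 4 of the 10 fits that left out 1 array.

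The other 19 HSPD1 probes were higher after cold storage by 0.23 to 0.45 in cortex at 6 h and by 0.14 to 0.40 at 24 h. In CMJ they were higher by 0.32 to 0.52 at 6 h and by 0.31 to 0.47 at 24 h. None of them was called, with adjusted p from 0.0795 to 0.645 over these 4 comparisons, and their median log2 fold changes were 0.39, 0.33, 0.44 and 0.39. In a fit without the 4 cold storage arrays numbered 5, the median of all 20 HSPD1 probes was 0.24, 0.21, 0.34 and 0.23. The log2 fold changes of the called probe against Ctl lay above the range of the other 19. On each array its log2 signal minus their median was -1.73 to -1.22 in Ctl-C, -1.74 to -1.47 in WI-C and -1.31 to -0.94 in WI+CS6h-C. The medians were -1.53, -1.69 and -1.23, and WI+CS6h-C overlapped with Ctl-C but not with WI-C. In WI+CS24h-C it was -1.23 to -0.93, which also touched the Ctl-C range. In CMJ this offset was -1.60 to -1.36 in Ctl-CMJ, -1.33 to -1.13 at 6 h, without overlap, and -1.41 to -1.08 at 24 h, with overlap. This difference between probes was described after the values were seen, for a probe picked by its calls, and was not tested. The size of the HSPD1 shift is therefore not settled by this 1 probe.

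**Figure D3:**
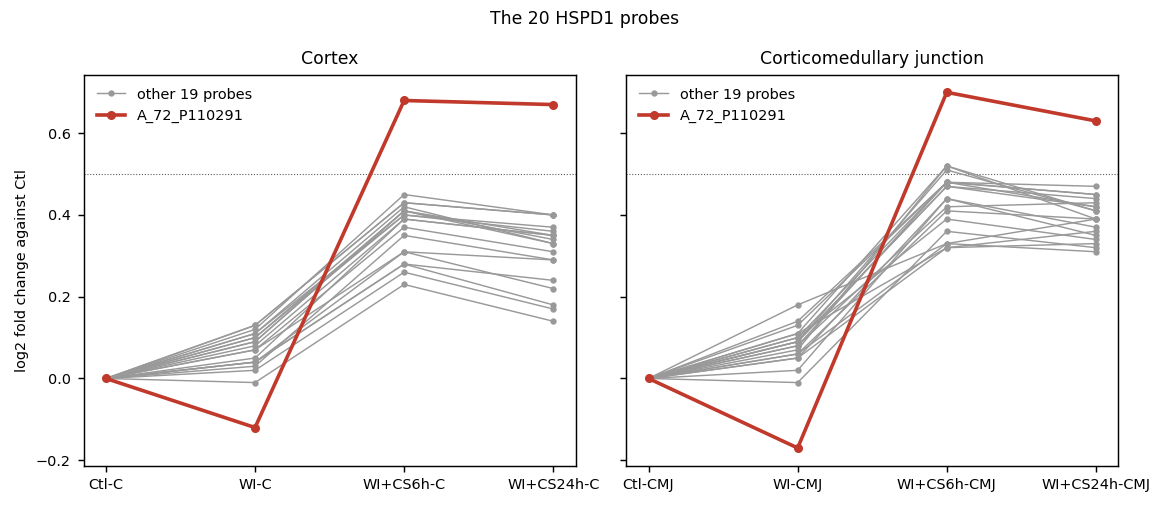
Log2 fold change against Ctl (vertical axis) of the 20 HSPD1 probes in the groups along the horizontal axis, in cortex (left) and corticomedullary junction (right), with Ctl at 0 and a dotted line at 0.5. The line of A_72_P110291 reaches 0.68 at 6 h in cortex and 0.70 at 6 h in CMJ, while the other 19 stay between 0.14 and 0.52 in the cold storage groups.

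HSPE1, the lid of the mitochondrial chaperonin, lies next to HSPD1 in the RefSeq annotation and was not called by any of its 4 probes. The brightest, A_72_P137646, read 14.21, 14.25, 14.35, 14.38 and 14.51 in Ctl-C and 14.83, 14.45, 14.77, 14.37 and 15.76 in WI+CS6h-C. The groups overlapped, and number 5 of WI+CS6h-C stood apart from the other 4. The log2 fold change was 0.50 ± 0.21 (adjusted p = 0.168). Over the 4 probes and 4 cold storage comparisons with Ctl the log2 fold changes ran from 0.13 to 0.50.

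HSPB1, a small heat shock protein that holds unfolded chains and binds actin, was not called, and its values after WI came close to those after cold storage. Its brighter probe, A_72_P088101, read 12.11, 12.04, 12.17, 11.82 and 12.25 in Ctl-C, 12.05, 12.5, 12.68, 12.52 and 12.33 in WI-C, and 12.47, 12.4, 12.36, 12.3 and 12.97 in WI+CS6h-C. WI-C overlapped with Ctl-C through 1 array, and WI+CS6h-C did not overlap. The log2 fold changes were 0.34 ± 0.14 after WI (adjusted p = 0.83) and 0.42 ± 0.14 at 6 h (adjusted p = 0.0807). In CMJ they were 0.40 ± 0.13 after WI (adjusted p = 0.146), 0.24 ± 0.13 at 6 h (adjusted p = 0.373) and 0.25 ± 0.13 at 24 h (adjusted p = 0.323). None was called.

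After 60 min of WI alone, 0 of the 57 probes were called in cortex, where 0.0849% of all probes were called, and 0 in CMJ, where 0.787% were called (limma, Benjamini-Hochberg). At an unadjusted p under 0.05, 6 probes passed in cortex and 10 in CMJ, beside 5.31% and 13.1% of all probes. The median log2 fold change of the members was 0.09 in cortex and 0.08 in CMJ. HSPH1 was at 0.03 ± 0.11 and 0.06 ± 0.11, HSPA8 at 0.06 ± 0.07 and 0.15 ± 0.06, and DNAJB1 (A_72_P204112) at 0.17 ± 0.15 and -0.06 ± 0.12 in cortex and CMJ. These intervals do not show that the genes were unchanged. WI-CMJ was also the group in which smooth muscle and adipocyte markers stood highest. The mean log2 signal of the smooth muscle genes (3 of the 5 listed were on the array) had a median of 11.39 against 10.69 in Ctl-CMJ. That of the 4 adipocyte genes was 5.7 against 5.14. The part of these in the member values was not tested.

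Against WI, which had the same warm period, cold storage was followed by higher HSPH1, DNAJB1 and HSPD1 in cortex. At 6 h, 4 probes of these 3 genes were called, beside 2.44% of all probes, and 9 probes passed by the adjusted p alone, beside 3.16%. At 24 h, 3 probes of the 3 genes were called, beside 1.68%, and 8 passed by the adjusted p alone, beside 2.11%. By the probe with the highest mean signal of each gene, 1 gene was called at 6 h and 0 at 24 h. HSPH1 (A_72_P591989) was higher by 0.73 ± 0.09 (adjusted p = 0.000247) and 0.58 ± 0.09 (adjusted p = 0.00192). HSPD1 (A_72_P110291) was higher by 0.80 ± 0.15 (adjusted p = 0.00708) and 0.79 ± 0.15 (adjusted p = 0.0088). DNAJB1 (A_72_P204112) was near the threshold, at 0.57 ± 0.15 (adjusted p = 0.0484) and 0.60 ± 0.15 (adjusted p = 0.0498). With the replicate number as a block both DNAJB1 calls were lost, at adjusted p of 0.0762 and 0.0811. WI and cold storage kidneys were different ones, so a shared number pairs nothing between them. With 1 array left out the DNAJB1 calls held in 2 and 3 of 10 fits.

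In CMJ against WI, 3 probes of HSPD1, DNAJB1 and HSPA4L were called at 6 h, beside 3.28% of all probes, and HSPD1 alone at 24 h, beside 3.34%. By the adjusted p alone 11 probes passed at 6 h and 10 at 24 h, beside 4.69% and 4.87%. By the probe with the highest mean signal of each gene, 1 gene was called at 6 h and 0 at 24 h. HSPA4L read 4.02 to 4.35 in WI-CMJ and 4.48 to 5.08 in WI+CS6h-CMJ, without overlap. Its log2 fold change was 0.65 ± 0.12 (adjusted p = 0.00401), which fell under the fold limit with normexp background correction (0.09) and on the deposited matrix (0.31). WI-CMJ against Ctl-CMJ had an uncalled log2 fold change of -0.25 ± 0.12 (adjusted p = 0.374) for this gene. HSPH1 stayed under the fold limit against WI-CMJ, at 0.45 ± 0.11 and 0.42 ± 0.11 (adjusted p of 0.0268 and 0.0357). Markers of other cells were called in these comparisons too. Of the collecting duct genes, the water channels AQP2 (-1 at 6 h and -0.88 at 24 h) and AQP3 (-0.91 to -0.84 over its probes) were lower and SCNN1G was higher (0.79 and 0.97). The adipocyte hormone ADIPOQ was called lower by 2 of its probes. Its brightest probe, not among them, had a mean log2 signal of 3.18 and was above background on 34 arrays, so no size is given. In cortex against WI-C, AQP3 was lower (-0.67 at both times). Their part in the member values was not tested. The comparisons with Ctl and with WI share their cold storage arrays.

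Between 6 h and 24 h of storage 0 member probes were called in cortex, beside 0% of all probes, and 0 in CMJ, beside 0.00229%. At an unadjusted p under 0.05 the count was also 0 in both tissues, beside 2.82% and 3.06% of all probes. The median log2 fold change of the members from 6 h to 24 h was -0.05 in cortex and -0.03 in CMJ. HSPH1 stood at -0.13 ± 0.11 in cortex and -0.03 ± 0.11 in CMJ, HSPA8 at -0.08 ± 0.07 and -0.01 ± 0.06, and HSP70.2 (A_72_P088236) at -0.24 ± 0.17 and 0.01 ± 0.18. By sign, 8 of the 57 probes were higher at 24 h in cortex and 19 in CMJ, beside 44.9% and 50.2% of all probes. When same-numbered arrays of the stored kidneys were paired, a test added after the values were seen, 0 member probes were called in either tissue and 0 of all probes passed the adjusted p (limma). At an unadjusted p under 0.05, 1 member probe passed in cortex, beside 1.72% of all probes, and 3 in CMJ, beside 4.61%. The probe in cortex was HSP70.2 A_72_P088236, lower at 24 h in 5 of 5 pairs (-0.24 ± 0.08, adjusted p = 1), and the brighter HSPH1 probe was also lower in 5 of 5 (-0.13 ± 0.07, adjusted p = 1). In CMJ, HSPA4L (-0.21 ± 0.06, adjusted p = 0.917) and HSPA13 (A_72_P004046, -0.27 ± 0.09, adjusted p = 0.917) were lower in 5 of 5 pairs. Of all probes, 1.17% in cortex and 2.74% in CMJ were lower in 5 of 5.

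No member probe was called between cortex and CMJ. In Ctl kidneys 0 member probes were called between the tissues, beside 0.347% of all probes, and 0 passed at an unadjusted p under 0.05. The difference of the WI effects between the tissues gave 0 calls among the members, beside 0% of all probes, and so did the WI+CS6h and WI+CS24h effects, each beside 0%. At an unadjusted p under 0.05, 1 member probe passed for WI+CS6h and 0 for the others. Compared directly, CMJ against cortex had 0 calls among the members in WI, WI+CS6h and WI+CS24h as well, beside 0.863%, 0.0643% and 0% of all probes. This fit did not pair the tissues, though same-numbered stored arrays deviated together (correlation 0.171 to 0.501 at 6 h, 0.181 to 0.545 at 24 h). The 0 calls therefore do not show that the tissues were alike. Log2 fold changes above 0 were seen for 7, 2 and 6 of the 57 probes, beside 44.1%, 40.3% and 47.9% of all probes. In Ctl they were seen for 12, beside 48.3%, so untreated kidneys leaned the same way. In WI, 7 member probes were lower in CMJ without overlap, while 3.67% of all probes did not overlap, in either direction. The probe that passed was HSPH1 A_72_P591989, named after its value was seen, for which the CMJ minus cortex difference was -0.27 ± 0.12 (adjusted p = 0.882). The call of HSPA8 in cortex but not in CMJ at 6 h, and that of HSP70.2 in CMJ but not in cortex at 24 h, were therefore not shown to differ between tissues.

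Within the cold storage groups, arrays with the same number in the labels stood out in the same way. Number 5 was the highest of its group in 4 of 4 groups for HSPD1, by 0.59 to 0.86 above the group median (log2 signal, brightest probe of each gene). The same held for HSPE1, by 0.62 to 0.99, for HSP90AA1, by 0.20 to 0.91, and for HSPB1, by 0.30 to 0.57. Number 5 was the lowest in 4 of 4 groups for HSP70.2, by -0.84 to -0.66, and for HSP70, by -1.39 to -0.93. By these probes, the mitochondrial chaperones and inducible HSP70 went in opposite directions in the arrays numbered 5. The dim HSP70.2 probe, missing on some arrays, had number 5 lowest in WI+CS6h-C (5.06). It did not in WI+CS24h-C (5.98), WI+CS6h-CMJ (5.87) and WI+CS24h-CMJ (5.95). HSPA8 in the arrays numbered 5 was between 0 and 0.21 and HSPH1 between -0.06 and 0 from the group median.

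HSPH1 was highest in the arrays numbered 4 in 4 of 4 groups, by 0.19 to 0.26, and DNAJB1 was above the median in numbers 3 and 4, by 0.20 to 0.72. HSPA12A was lowest in numbers 3 and 4, at -1.06 to -0.34. By the labels, kidneys biopsied at 6 h were biopsied again at 24 h, but they do not say that a number stands for a kidney. The deviations over all probes paired the numbers in CMJ (correlation 0.369 to 0.657 between the times, each array closest to its own number in 5 of 5) and not in cortex (-0.261 to 0.392, 2 of 5). The arrays numbered 5 were on 4 different slides and both scan days, and their shares of spots above background were 57%, 67%, 64.3% and 66%.

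**Figure D4:**
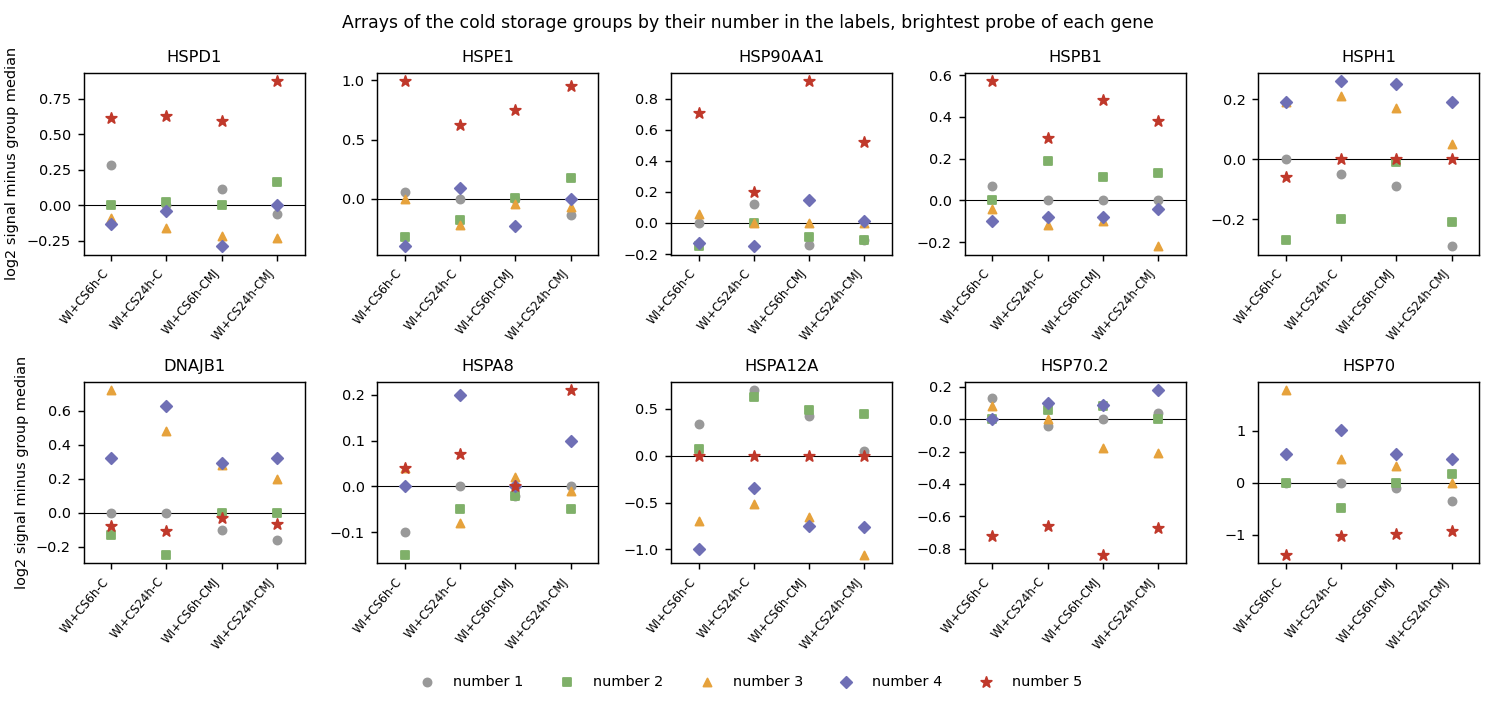
Log2 signal minus the group median (vertical axis) for the brightest probe of 10 member genes in the 4 cold storage groups (horizontal axis), with a separate symbol for each array number. Number 5 is highest in all 4 groups for HSPD1, HSPE1, HSP90AA1 and HSPB1 and lowest in all 4 for HSP70.2 and HSP70.

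Other genes moved with the arrays numbered 5. The chaperonin and prefoldin subunits were highest there in 4 of 4 groups, by 0.39 to 0.47, and so were the endoplasmic reticulum stress genes, by 0.31 to 0.52, the HSP90 co-chaperones, by 0.21 to 0.34, and the J-domain proteins, by 0.15 to 0.51 (median of each list's brightest probes). The other HSF1 targets were highest there too, by 0.11 to 0.21. The HSP70 co-chaperones were lowest there in 4 of 4 groups, at -0.19 to -0.10, and the small heat shock proteins in 3 of 4, at -0.31 to 0. The median of the proximal tubule markers deviated from that of its group by -0.41 to -0.16. Hemoglobin HBB, the single erythrocyte marker of 3 on the array, was highest in number 5 in 4 of 4 groups, but its probe was above background on only 24 of the 40 arrays, so no size is given. Their part in the member values was not tested.

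Since the arrays numbered 5 stood apart, the fit was repeated without those 4 arrays, a choice made after the values were seen. In it HSP70.2 (A_72_P088236) was called in cortex at 6 h, at 0.66 ± 0.10 (adjusted p = 0.00114), and in CMJ at both times, at 0.79 ± 0.11 (adjusted p = 0.00067) and 0.76 ± 0.11 (adjusted p = 0.000804). In cortex at 24 h it was 0.41 ± 0.10 (adjusted p = 0.0257), under the fold limit. Number 5 was the lowest array for this probe in 4 of 4 groups, so leaving it out had to raise these fold changes. The HSP70.2 values of this fit are therefore descriptions and no test of a rise. HSP90AA1 (A_72_P232852) dropped to 0.43 ± 0.08 in cortex and 0.45 ± 0.07 in CMJ at 6 h, under the fold limit. HSPD1 (A_72_P110291) was called at 0.57 and 0.58 in cortex and 0.60 and 0.50 in CMJ. Of the 20 HSPD1 probes, 8 and 11 passed the adjusted p at 6 h in cortex and CMJ, against 1 with all arrays. HSPE1 (A_72_P137646) went from 0.50 to 0.27 ± 0.11 in cortex and from 0.22 to 0.06 ± 0.10 in CMJ at 6 h. HSPH1 (A_72_P035611) was at 0.65 ± 0.12 (adjusted p = 0.00461) and DNAJB1 (A_72_P204112) at 0.78 ± 0.16 (adjusted p = 0.0104) in cortex at 6 h, close to the values with all arrays. In all, 5, 5, 4 and 3 member genes were called against Ctl (cortex at 6 h and 24 h, then CMJ), in place of 6, 5, 5 and 5, beside 3.59%, 3.9%, 3.8% and 4.12% of all probes.

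Among chaperone genes beyond the members, single genes were called in most lists. Of the 20 J-domain genes on the array (44 listed, DNAJB1 left out), cortex at 6 h had 1 called higher and 1 lower, by 3 of 42 probes, beside 4.45% of all probes. DNAJA4, a farnesylated cytosolic partner of HSP70, was higher by 0.96 ± 0.20 (adjusted p = 0.00843), and DNAJC19, of the mitochondrial inner membrane, had a log2 fold change of -0.52 ± 0.14 (adjusted p = 0.0354). In CMJ, DNAJC3, which works in the endoplasmic reticulum, was lower after cold storage, with log2 fold changes of -0.68 ± 0.15 (adjusted p = 0.0151) and -0.76 ± 0.15 (adjusted p = 0.00624). DNAJA4 was called higher in CMJ at 24 h against Ctl-CMJ (A_72_P177971, 0.52 ± 0.13, adjusted p = 0.0239), and by both of its called probes at both times against WI-CMJ, by 0.62 to 1.01. The list's median log2 fold change lay between -0.02 and 0.12 over the 4 cold storage comparisons with Ctl.

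Of 12 other HSF1 targets on the array (22 listed), 2 were called higher in cortex at each time and none lower, by 2 of 36 probes, beside 4.45% and 2.9% of all probes. CRYAB, a small heat shock protein, was higher by 0.66 ± 0.18 (adjusted p = 0.0426) and 0.83 ± 0.18 (adjusted p = 0.0163). CHORDC1, an HSP90 co-chaperone, was higher by 0.67 ± 0.13 (adjusted p = 0.00529) and 0.62 ± 0.13 (adjusted p = 0.0103). In CMJ the call was RGS2, a regulator of G protein signalling, at 0.87 ± 0.24 (adjusted p = 0.0427) and 0.93 ± 0.24 (adjusted p = 0.0287). SERPINH1, the collagen chaperone, was lower than in WI-CMJ, at -0.69 ± 0.19 (adjusted p = 0.0384) and -0.66 ± 0.19 (adjusted p = 0.0466), while CHORDC1 was higher than in WI-CMJ at 24 h, by 0.57 ± 0.13 (adjusted p = 0.0142). The list's median was 0.35 and 0.34 in cortex and 0.16 and 0.15 in CMJ, beside 0.057 and 0.014, and -0.002 and 0.008, over all probes. CRYAB also differed between the tissues, being higher in Ctl-CMJ than in Ctl-C by 1.27 ± 0.20 (adjusted p = 0.00115).

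In the comparisons with Ctl, CRYAB was the only call among the 4 small heat shock genes on the array (1 of 5 probes). CHORDC1 was the only one among the 10 HSP90 relatives and co-chaperones (1 of 26 probes), beside 4.45% and 2.9% of all probes in cortex. Of 3 HSP70 co-chaperones (12 probes), BAG4, which releases the client from HSP70, was higher at 6 h in cortex (0.79 ± 0.19, adjusted p = 0.0225) and in CMJ (0.71 ± 0.20, adjusted p = 0.0447), and BAG6 was higher after WI in CMJ (0.70 ± 0.17, adjusted p = 0.0492). None of the 7 chaperonin and prefoldin genes was called. Among heat shock factors and their partners, HSF2, HSBP1 and HSBP1L1 were on the array, and none of the 3 was called. Of 12 endoplasmic reticulum stress genes (1 of 37 probes called at each time in cortex, and 3 and 4 in CMJ, beside 3.33% and 3.7% of all probes), DDIT3, a transcription factor of that response, was higher by 0.65 ± 0.14 (adjusted p = 0.013) and 0.62 ± 0.14 (adjusted p = 0.0236) in cortex. In CMJ, DDIT3 was higher by 2 probes at both times, at 0.57 and 0.60, then 0.63 and 0.61, and DNAJC3 was lower. Of the 2 other mitochondrial quality genes, CLPX was lower in CMJ at 24 h (-0.55 ± 0.15, adjusted p = 0.0413). The 1 further HSP70 relative on the array was not called.

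Smooth muscle markers moved with the cortex groups too: their mean log2 signal had a median of 10.44 in both Ctl-C and WI-C, against 10.95 at 6 h (WI+CS6h-C) and 10.94 at 24 h (WI+CS24h-C). Their summed signal ran from 6160 to 8140 in Ctl-C and from 7180 to 9780 in WI+CS6h-C, and each of the 3 genes was above background on every array. CNN1, a smooth muscle calponin, was called higher by 2 probes at both times (1.08 to 1.19), ACTA2, smooth muscle actin, at 6 h (0.92 ± 0.24, adjusted p = 0.0337), and the collecting duct gene SCNN1G at 6 h (0.65 ± 0.18, adjusted p = 0.0387). CRYAB is also expressed by muscle cells. Their part in the member values was not tested.

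Over the 40 arrays, the named probes most like the brighter HSPH1 probe included PRNP (Pearson correlation 0.909), FUT2 (0.904), HSPA8 (0.901) and ZBTB11 (0.897), out of 16021 probes with a gene name. After each group's mean was removed these correlations were 0.658, 0.734, 0.587 and 0.601. The arrays share their groups, and the stored kidneys were sampled at both times, so the correlations are descriptions.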

How the data were processed

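RNA of 40 biopsies was labelled with 1 dye and hybridised to Agilent porcine arrays of 60-base probes. Per the submitters' processing notes, the authors used Agilent Feature Extraction 11.5.1.1, R 2.15.2 and limma, and their methods name log2 values, quantile normalization by condition, and the adjusted p and fold limits used here. The deposited scanner files hold the intensity of each spot, already background-corrected and processed by Feature Extraction. The authors' deposited matrix holds log2 values: 99.98% of its 1286120 values for the 32153 identifiers with 1 spot equalled the quantile-normalized log2 median signal within 1e-06. No per-sample column was left unused (0).

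Here log2 of the processed signal was quantile normalized over all 40 arrays (R 4.3.3, limma 3.58.1, statmod 1.5.0). Spots marked as outliers (10 to 85 per array) were left out and control spots were not tested. Each member probe had 1 spot and was kept apart from other probes of its gene. Groups and numbers came from the sample titles. In each tissue, lmFit and eBayes were run on 4 groups of 5 arrays; tissues were compared in a fit of all 40. A probe was called at an adjusted p under 0.05 (Benjamini-Hochberg) and a log2 fold change of at least 0.5. With a single value per gene, the probe with the highest mean signal was used. The text names every called probe of the members and gives the rest by range, at most 4 called genes per further list and comparison, and the 5 named probes with the highest correlation with HSPH1, of which 1 is not reported here. The members and lists were chosen with earlier results of these data known. The fit was tested on simulated data.

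Of the 19 member identifiers, 11 had a RefSeq symbol. Arrays lay on 10 slides scanned on 2 days, and each group had arrays of both days. The alternatives were other normalizations, normexp with an offset of 50, a filter on dim probes, probes averaged by identifier, the deposited matrix, slide, scan day, replicate number and share of spots above background as terms, fits of the 2 groups compared, outlier spots kept, and each array left out. The fit without the cold storage arrays numbered 5 and the paired test of 24 h against 6 h were added after seeing the data. Same-numbered arrays of the stored kidneys deviated together in CMJ between 6 h and 24 h (correlation 0.369 to 0.657) and between cortex and CMJ (0.171 to 0.501 at 6 h, 0.181 to 0.545 at 24 h). In WI the correlation between the tissues was 0.043 to 0.204. It was not above 0 in every pair in Ctl (-0.108 to 0.099) or in cortex between the times (-0.261 to 0.392). The labels state that kidneys within a group were independent.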

Additional observations from a re-analysis of the deposited data

Results flagged for a closer look

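In 14 of the 120 sets of 5 arrays (the brightest probe of each of the 15 genes in 8 groups), the highest or lowest array stood apart from the other 4 beyond Dixon's critical value of 0.71, where chance gives about 1 in 20. All values are log2 signals.

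An array numbered 5 was the one apart in 10 of these, in cold storage groups or in WI-CMJ, whose kidneys were different ones. It was the highest array for HSP90AA1 in WI+CS6h-C (14.04), WI+CS6h-CMJ (13.97) and WI+CS24h-CMJ (13.73). It was also the highest for HSPB1 in WI+CS6h-C (12.97), HSPD1 in WI+CS24h-C (14.51) and HSPE1 in WI+CS6h-CMJ (15.33). It was the lowest for HSP70.2 in WI+CS6h-C (9.56) and WI+CS24h-C (9.38), and for HSPE1 (14.23) and HSPH1 (8.8) in WI-CMJ.

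The other sets apart were HSP90AA1 in Ctl-C, where number 3 was lowest (13.12), HSPA12A in WI-C, where number 4 was lowest (7.73), HSPA8 in WI-C, where number 3 was lowest (13.73), and HSPA4L in WI-CMJ, where number 1 was highest (4.35).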

How the results depend on the processing

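Of the 36 calls of a member probe, each tried under 24 alternatives (864 in all), 644 kept their call, 220 lost it in the same direction and 0 reversed. HSPH1 (A_72_P035611) and DNAJB1 (A_72_P204112) in WI+CS6h-C against Ctl-C kept it in 24 of 24. The fewest of the 36 calls held on the deposited matrix (10), with probes averaged by identifier (15) and with normexp (16). In the order WI+CS24h-C against Ctl-C, WI+CS6h-C against WI-C, WI+CS24h-C against WI-C, WI+CS6h-CMJ and WI+CS24h-CMJ against Ctl-CMJ, the counts of member genes called went from 5, 3, 3, 5 and 5 to 1, 1, 0, 1 and 2 on the deposited matrix, to 2, 1, 1, 1 and 1 by identifier and to 3, 1, 1, 2 and 2 with normexp. WI+CS6h-CMJ against WI-CMJ went from 3 to 0, 1 and 1, and WI+CS24h-CMJ against WI-CMJ from 1 to 0 on the matrix and by identifier. In the order of all these comparisons, 0.766%, 0.603%, 0.507%, 0.654%, 0.698%, 0.629% and 0.665% of all probes were called with normexp. In the main fit the shares were 2.9%, 2.44%, 1.68%, 3.33%, 3.7%, 3.28% and 3.34%. Quantile normalization within each of the 8 groups gave 3 for WI+CS24h-C against Ctl-C, beside 4.15% of all probes. It gave 9 and 5 for cortex against WI-C, beside 6.3% and 2.03%, and 6 and 6 for CMJ against WI-CMJ, beside 4.94% and 5.09%. Under that scaling the median of all probes lay between -0.122 and 0.218 over the comparisons, and the share of higher calls in WI+CS24h-C against Ctl-C went from 45.7% to 17.8%. With 75th percentile scaling, under which the median of WI+CS6h-C against Ctl-C was 0.101, WI+CS24h-C against WI-C had 1 (1.42% of all probes) and WI+CS24h-CMJ against Ctl-CMJ 3 (3.24%). The latter was also 3 with scan day as a term and without the arrays numbered 5, which gave 3 for WI+CS24h-CMJ against WI-CMJ. With the share of spots above background as a covariate, WI+CS6h-C against Ctl-C had 2 (2.14% of all probes), WI+CS24h-C against WI-C 5 (3.21%), and CMJ against Ctl-CMJ 3 and 2 (2.67% and 3.1%). Fits of only the 2 groups gave 1 for WI+CS6h-C against WI-C and 2 for both CMJ comparisons with Ctl-CMJ. With the replicate block, 33 of the 36 calls held, and the counts were 6, 5, 2 and 2 in cortex (6 h and 24 h against Ctl-C, then WI-C) and 5, 4, 3 and 1 in CMJ. It changed no calls beyond those of DNAJB1 and HSP70.2 given above. A shared number pairs no kidneys between Ctl, WI and cold storage. With 1 array left out, the counts ran from 5 to 7 and from 3 to 5 in cortex against Ctl-C (3 without Ctl-C 3), from 2 to 4 at both times against WI-C, from 2 to 4 and from 1 to 4 in CMJ against Ctl-CMJ, and from 3 to 3 and from 1 to 3 against WI-CMJ. At 6 h against Ctl-CMJ the count was 2 without Ctl-CMJ 1, 4 or 5, and 3 without Ctl-CMJ 2 or WI+CS6h-CMJ 2 or 3. At 24 h against Ctl-CMJ it was 1 without Ctl-CMJ 2 or 4, 2 without Ctl-CMJ 5 or WI+CS24h-CMJ 1, 2 or 5, and 3 without Ctl-CMJ 1 or WI+CS24h-CMJ 4. At 24 h against WI-CMJ it was 2 without WI-CMJ 1 or 5 or WI+CS24h-CMJ 4, and 3 without WI+CS24h-CMJ 1, 3 or 5. The comparisons of WI with Ctl, of 24 h with 6 h, of Ctl-CMJ with Ctl-C and of the treatment effects between the tissues had 0 member genes under every alternative that could be fitted. The direct comparisons of the tissues in WI, WI+CS6h and WI+CS24h were not run under alternatives. All 36 calls had the same direction in both scan days, at 0.35 to 1.56. The causes of these changes were not tested.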
